A study of Rattus norvegicus with 16 samples.

Results

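The genes described here build, organise and cut the extracellular matrix of the liver: collagens, laminin chains, tissue inhibitors of metalloproteinases, matrix metalloproteinases and ADAMTS proteases, together with the PDGF receptors, fibronectin, Sparc, decorin and lumican. They were selected by symbol, from rows of the array that carry 1 gene symbol. The rule uses measured signal only to take the brightest row of a gene. Of 13215 genes with such a row, 79 belonged to the selection, each with 1 row. They comprised 31 collagens, 9 laminin chains, 19 matrix metalloproteinases, 12 ADAMTS proteases, 3 tissue inhibitors, Pdgfrb, and the 4 genes Fn1, Sparc, Dcn and Lum. Another 3 rows name Lamc3 or Adamts13 together with a gene outside the selection and were not used. Pdgfra and Col1a1 had no row of their own and were not analysed here.

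RNA was measured in the livers of 16 male Sprague Dawley rats on exon arrays that carry probes along whole transcripts, with 1 array per animal and 4 animals per group. The groups were fed rats, rats fasted into phase 2 (P2), rats fasted into phase 3 (P3), and rats fasted into phase 3 that were then given food again for 2 days (P3r2). Phase 2 is the long stretch of a fast in which body fat is the main fuel, and phase 3 is the late stretch in which breakdown of body protein speeds up. All animals were of the same strain and sex, with no genetic change and no drug named in the labels. How long each fast lasted is not given in the sources used here, so phase and duration of the fast cannot be told apart.

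The matrix of a healthy liver is sparse. Hepatic stellate cells in the space of Disse and portal fibroblasts make most of its fibrillar collagen, the sinusoids lack a continuous basement membrane, and hepatocytes secrete plasma fibronectin. Metalloproteinases and ADAMTS enzymes cut matrix proteins, and tissue inhibitors of metalloproteinases block them. PDGF receptor beta is the receptor through which platelet-derived growth factor drives stellate cells, and it is a common marker of these cells.

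Values are log2 signals, so a difference of 1 is a 2-fold difference in signal, and each change is a log2 fold change given with ± its standard error. "Called" stands for an adjusted p below 0.05 from limma with Benjamini-Hochberg adjustment over 18885 rows. Signals of different genes come from different probes and were not set against each other. A change in whole liver RNA can come from fewer cells of a type or from less RNA per cell, and these cannot be told apart here. Labels give 1 animal per array and no technical repeats, so p-values measure the spread between animals. Pairs of arrays of the same group had correlations of 0.966 to 0.992, and pairs from different groups 0.912 to 0.985. Precision is limited by there being 4 arrays in each group.

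P3 animal 4 stood apart from the other P3 animals in the genes of stromal cells. Its log2 signal was 9.96 for Col1a2, where the other 3 P3 livers had 6.81 to 7.0, and 9.19 for Col3a1, where they had 5.75 to 6.94. Sparc (10.82), Mmp2 (7.65), Col6a1 (7.84), Lum (6.07) and Timp2 (7.88) were also highest of the group in this animal. The mean log2 signal of 14 marker genes of stellate cells and fibroblasts was 7.55 in it, the highest of the 16 arrays, against 6.81 to 6.90 in the other P3 livers and 6.39 to 7.16 in fed livers. Means over 10 endothelial markers (7.5) and 13 macrophage markers (7.97) were also the highest of the 16 arrays. The part of these cell types in its values was not tested, and values on P3 that rest on this animal are given with and without it. The animal was picked out by its values for these same genes. For them, adjusted p-values without it are therefore descriptions and no independent evidence of a change.

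At phase 2 most matrix genes called were lower than in fed livers, a balance that moved once the trend with gene length was taken out. Of the 79 genes, 1 was higher (1.27%) and 11 were lower (13.9%), while over all rows tested 6.13% were higher and 6.58% lower. The 4 values of P2 and the 4 fed values did not overlap for 10 genes on the higher side and for 20 on the lower side, against 10.2% and 9.0% of all rows. The median log2 fold change of the 79 genes was 0.03, against 0.05 over all rows. The 26 genes with a dim signal, below the median row mean of 4.39, had a median of 0.10 (dim rows as a whole 0.09), and the 53 brighter genes had -0.13 (brighter rows as a whole -0.05). When dim rows were left out of the fit, 2 of the 53 brighter genes were higher and 12 lower, against 11.6% and 16.1% of brighter rows. The count of lower genes among the 79 was 6 without fed animal 4 and 7 without P2 animal 4. The count of higher genes was 0 without fed animal 1, P2 animal 2 or P2 animal 4, and 2 without fed animal 2 or P2 animal 3.

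Phase 3 livers had matrix genes called in both directions. Against fed livers, 5 genes were higher (6.33%) and 10 lower (12.7%), where all rows gave 11.3% and 8.06%. Without P3 animal 4 the counts were 3 and 12, against 8.84% and 7.07% of all rows. In a fit without dim rows, 5 of the 53 brighter genes were higher and 9 lower, against 23% and 16.1% of brighter rows. The P3 and fed values did not overlap for 4 genes on the higher and 8 on the lower side (11.5% and 8.05% of all rows). Against P2, 9 genes were higher (11.4%) and 2 lower (2.53%) in P3, where all rows gave 13.5% and 8.53%. Without P3 animal 4 these counts were 7 and 3, against 10.7% and 6.92% of all rows, and 6 genes were lower without P3 animal 3. The fit without dim rows had 9 of the 53 brighter genes higher and 3 lower, against 28.1% and 15.5% of brighter rows. Values of P3 and P2 did not overlap for 9 genes higher and 4 lower, where all rows gave 12.5% and 9.36%. The P2 and P3 comparisons with fed livers share the same 4 fed arrays, and the P3 arrays enter 3 comparisons, so the values are given side by side.

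After 2 days of food 1 matrix gene was called different from fed livers. Against P3, 4 genes were higher (5.06%) and 5 lower (6.33%), where all rows gave 10.5% and 7.93%. Without P3 animal 4 the counts were 8 and 3, against 9.44% and 6.06% of all rows, and 3 genes were also called lower without P3r2 animal 1, 2 or 4. In a fit without dim rows, 5 of the 53 brighter genes were higher and 6 lower, against 20.9% and 16% of brighter rows. P3r2 and P3 values were apart for 6 genes on the higher and 8 on the lower side (12.6% and 10.2% of all rows). Against fed livers, limma called 0 genes higher and 1 lower (1.27%), Pdgfrb, where all rows gave 2.21% and 0.514%. At an unadjusted limma p below 0.05, 2 genes were higher and 9 lower. The share of all rows at that unadjusted threshold was not counted, so these counts cannot be judged against it. The P3r2 and fed values did not overlap for 1 gene higher, Col4a5, and 8 lower, against 9.85% and 2.70% of all rows. Without fed animal 4 there was 1 gene higher, Adamts1. The fit without dim rows had 1 of the 53 brighter genes higher and 2 lower against fed livers, where brighter rows gave 6.27% and 1.1%. In all, 23 of the 79 genes were called in at least 1 comparison and 56 in none, and of the 26 dim genes 1 was called, Col4a5.

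**Figure D1:**
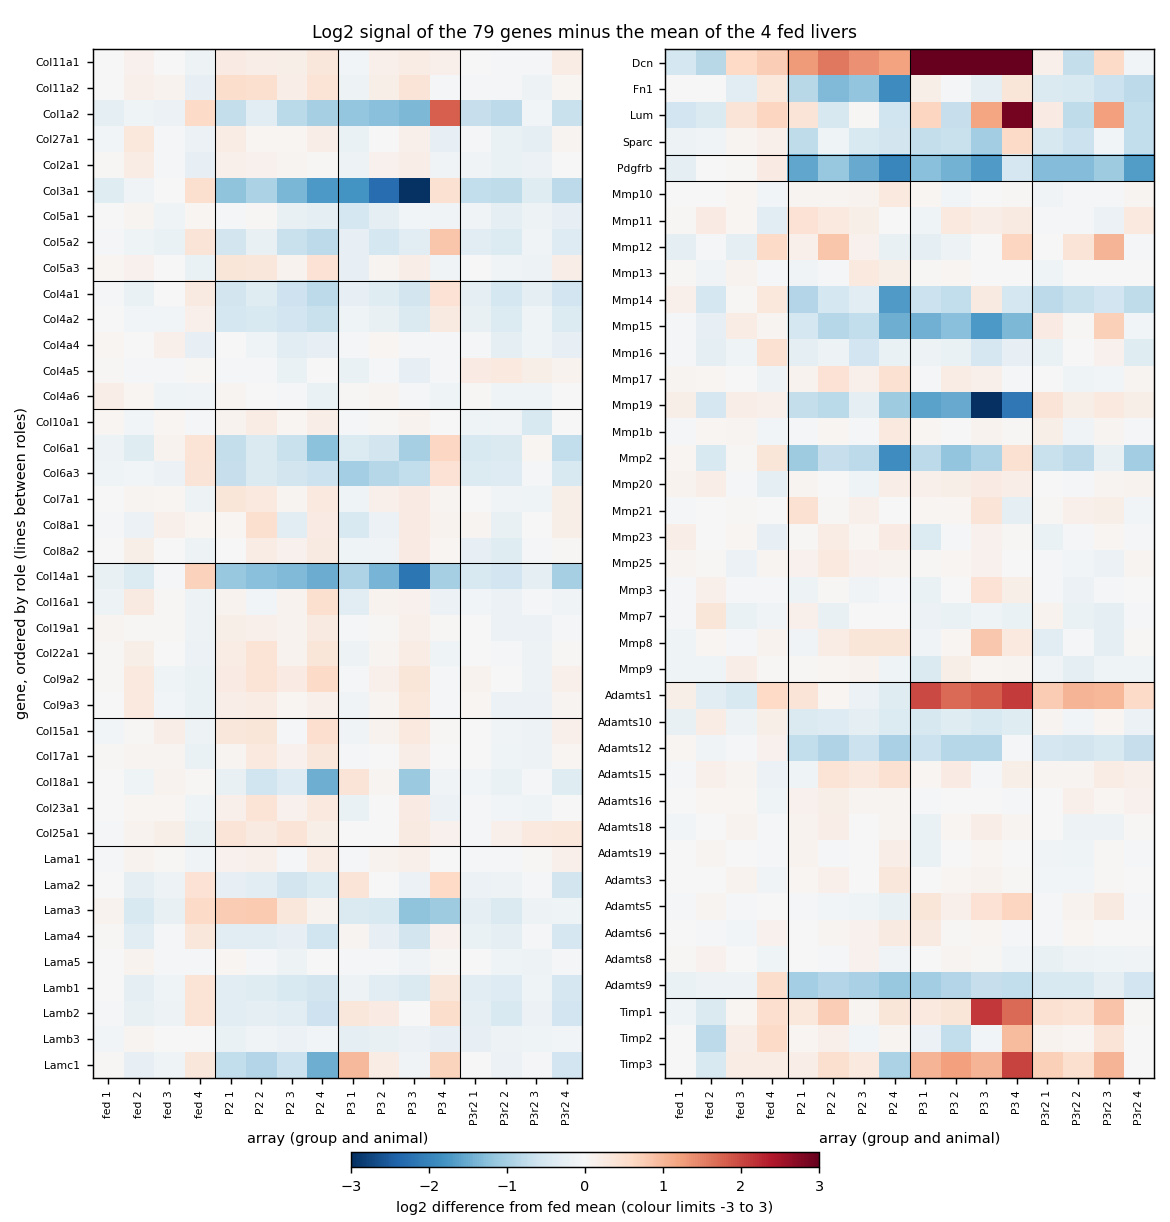
Log2 signal of each of the 79 genes in each of the 16 livers, minus the mean of the 4 fed livers, with genes ordered by role and arrays by group. Blue is below and red above the fed mean, with the deepest colours given to the largest differences, and the red cells of Dcn and Adamts1 in P3, the blue cells of Pdgfrb outside the fed group and the lone red cell of Col1a2 in P3 animal 4 stand out.

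Decorin was the matrix gene with the largest change in these livers. Dcn (transcript cluster 7314166), a small leucine-rich proteoglycan that binds collagen fibrils and TGF-beta, had log2 signals of 5.38, 5.07, 6.51 and 6.64 in fed livers and 7.18, 7.47, 7.26 and 7.11 in P2. In P3 they were 9.15, 8.95, 10.53 and 10.17, and in P3r2 6.06, 5.19, 6.47 and 5.82. All 4 P3 livers lay above all P2 livers, and all P2 livers above all fed livers, while the P3r2 values lay within the fed range. Dcn rose by 3.80 ± 0.39 in P3 against fed (adjusted p = 4.4e-06), a 13.9-fold higher signal. The change was 3.64 ± 0.43 with P3 animal 4 left out. The step from P2 to P3 was 2.44 ± 0.39 (adjusted p = 0.00032), and re-feeding changed the signal by -3.81 ± 0.39 (adjusted p = 4.2e-06). P3r2 and fed livers differed by -0.01 ± 0.39.

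The rise of Dcn at P2 was 1.36 ± 0.39 (adjusted p = 0.035), and this call was lost without fed animal 1 or 2 or any of the 4 P2 animals, with adjusted p between 0.054 and 0.095. The 14 stellate cell and fibroblast markers, which share no gene with the 79, were at 6.59 to 6.93 in P2, 6.81 to 7.55 in P3 and 6.48 to 7.11 in P3r2 as a mean over the list. Of these markers, P3 livers had 2 higher and 1 lower relative to fed livers, where all rows gave 11.3% and 8.06%. Their part in the change of Dcn was not tested. Lumican (Lum), a related proteoglycan whose gene lies beside Dcn on rat chromosome 7, was dim in this liver RNA. Its log2 signals were 2.62, 2.75, 3.57 and 3.83 in fed livers, 3.59, 2.72, 3.23 and 2.60 in P2, 3.84, 2.50, 4.38 and 6.07 in P3, and 3.44, 2.44, 4.43 and 2.45 in P3r2. The groups overlapped, and the change of 1.01 ± 0.60 in P3 against fed was not called (adjusted p = 0.33). It was 0.38 ± 0.51 when P3 animal 4 was left out.

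Fibronectin was lower at phase 2 than in fed livers and higher again at phase 3, where its values overlapped the fed range. Fn1 (transcript cluster 7363541) had log2 signals of 11.87, 11.83, 11.52 and 12.17 in fed livers, 11.01, 10.52, 10.66 and 9.95 in P2, 12.02, 11.80, 11.57 and 12.22 in P3, and 11.41, 11.38, 11.20 and 11.07 in P3r2. All P2 values lay below all values of the other groups, and the P3r2 values lay below those of the fed and P3 livers. Fn1 fell by 1.31 ± 0.20 in P2 against fed (adjusted p = 0.0012) and rose by 1.37 ± 0.20 from P2 to P3 (adjusted p = 0.00016). P3 and fed livers differed by 0.06 ± 0.20 (adjusted p = 0.91). After re-feeding it was lower than in P3 by -0.64 ± 0.20 (adjusted p = 0.038), a call lost without any single array except P3 animal 3 (adjusted p 0.052 to 0.12). Against fed livers the re-fed value of -0.58 ± 0.20 was not called (adjusted p = 0.16).

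Sparc, a collagen-binding glycoprotein, had log2 signals of 10.10, 10.16, 10.35 and 10.42 in fed livers and 9.49, 10.13, 9.81 and 9.71 in P2. In P3 it had 9.54, 9.59, 9.22 and 10.82, and in P3r2 9.78, 9.62, 10.18 and 9.53. No comparison was called with all arrays. The high value in P3 was that of animal 4, and without it Sparc was lower in P3 than in fed livers by -0.81 ± 0.18 (adjusted p = 0.0049), where with it the change was -0.46 ± 0.27 (adjusted p = 0.3).

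**Figure D2:**
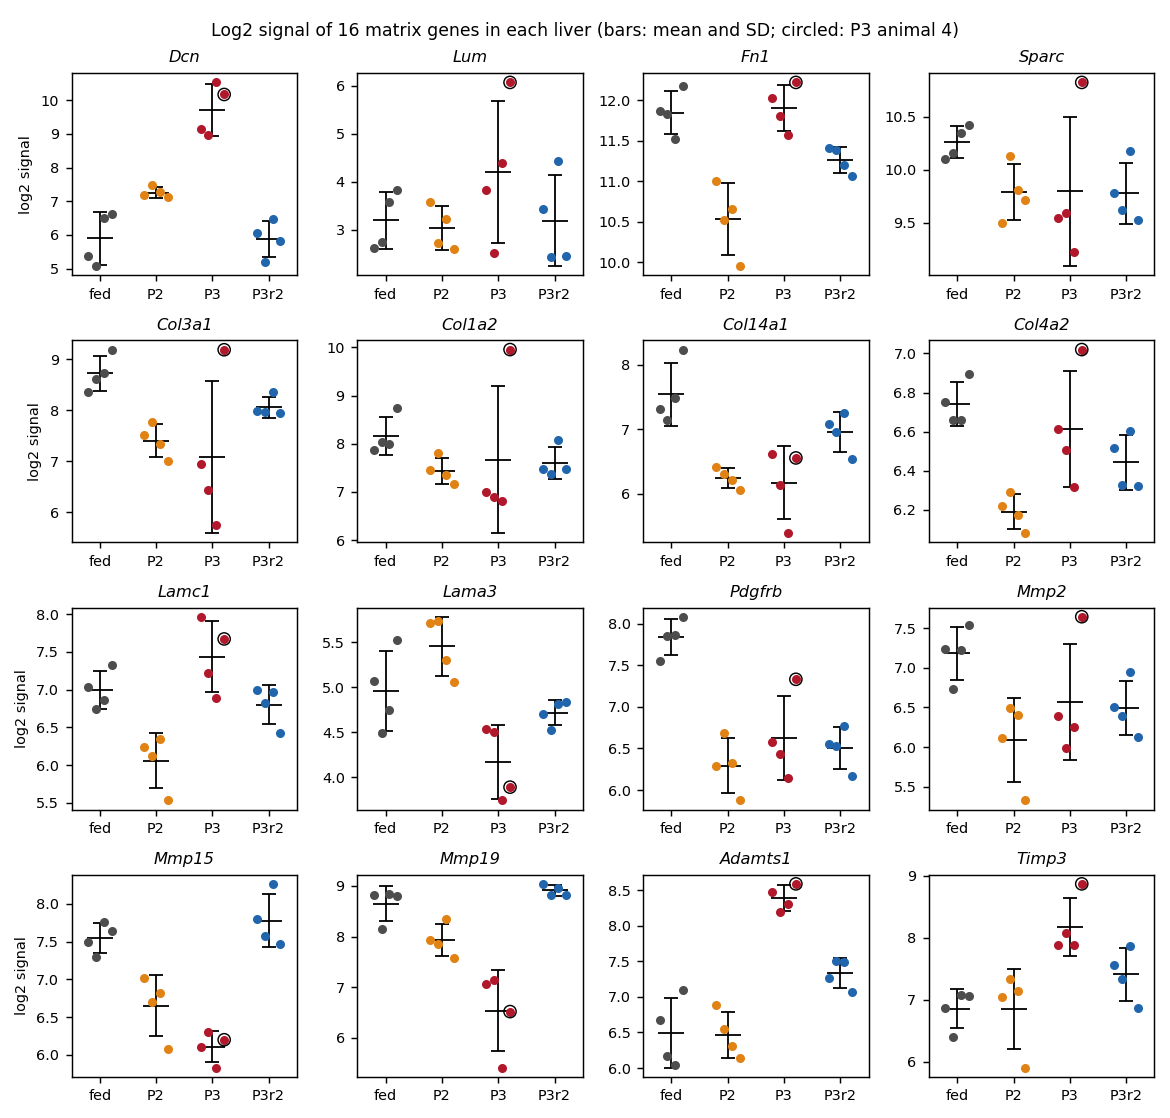
Log2 signal of 16 matrix genes in each liver, 1 panel per gene with its own vertical scale, by group. Points are animals, bars give the mean and SD of 4, and the circle marks P3 animal 4, which is far above the other P3 livers for Col1a2 (9.96) and Col3a1 (9.19) and among them for Dcn (10.17).

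Among the fibrillar collagens, which form the rope-like fibres of scar and portal tracts, Col3a1 was the member with a called change. Its log2 signals were 8.36, 8.61, 8.73 and 9.19 in fed livers, 7.51, 7.78, 7.34 and 7.0 in P2, 6.94, 6.43, 5.75 and 9.19 in P3, and 7.98, 7.96, 8.37 and 7.94 in P3r2. All P2 livers lay below all fed livers, and 3 of the P3 livers lay below all P2 livers, with P3 animal 4 at the top of the fed range. The change was -1.32 ± 0.50 in P2 (adjusted p = 0.094) and -1.65 ± 0.50 in P3 against fed (adjusted p = 0.029). The P3 call was lost without fed animal 3 or 4 or P3 animal 1, 2 or 3 (adjusted p 0.06 to 0.097). Without P3 animal 4 the fall was -2.35 ± 0.26 (adjusted p = 2.1e-05), P3 was lower than P2 by -1.03 ± 0.26 (adjusted p = 0.013), and re-fed livers were higher than P3 by 1.69 ± 0.26 (adjusted p = 0.00039).

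Col1a2, a chain of type I collagen, depended on the same animal. Its log2 signals were 7.87, 8.03, 7.99 and 8.73 in fed livers, 7.45, 7.81, 7.35 and 7.17 in P2, 7.0, 6.90, 6.81 and 9.96 in P3, and 7.47, 7.38, 8.09 and 7.49 in P3r2. All P2 values were below all fed values, and P3 held both the 3 lowest values and the highest value of the 16 arrays. With all arrays no comparison was called, and P3 against fed gave -0.49 ± 0.52 (adjusted p = 0.64). Without P3 animal 4, Col1a2 was lower in P3 than in fed livers by -1.25 ± 0.22 (adjusted p = 0.00091). Re-fed livers were then higher than P3 by 0.70 ± 0.22 (adjusted p = 0.042), where with all arrays the difference was -0.06 ± 0.52.

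The other 7 fibrillar collagens, Col2a1, Col5a1, Col5a2, Col5a3, Col11a1, Col11a2 and Col27a1, were called in no comparison. Col5a2, which lies beside Col3a1 on rat chromosome 9, had a change in P2 of -0.56 ± 0.24 (adjusted p = 0.13). In P2 the cartilage-type chains Col11a2 (0.40 ± 0.13, adjusted p = 0.051) and Col11a1 (0.24 ± 0.10, adjusted p = 0.12) were above 0 but not called. Over the 9 fibrillar collagens the medians were 0.10 in P2, -0.07 in P3 and -0.13 in P3r2 against fed.

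Fibril-associated collagens sit on the surface of collagen fibres. Of the 6 measured, Col9a2, Col9a3, Col14a1, Col16a1, Col19a1 and Col22a1, Col14a1 was the member called. Its log2 signals were 7.31, 7.14, 7.48 and 8.24 in fed livers, 6.41, 6.30, 6.21 and 6.06 in P2, 6.61, 6.14, 5.39 and 6.56 in P3, and 7.08, 6.96, 7.26 and 6.54 in P3r2. Both fasted groups lay below the lowest fed value, and re-fed livers overlapped both the fed and the P3 range. Col14a1 fell by 1.30 ± 0.27 in P2 (adjusted p = 0.0064) and by 1.37 ± 0.27 in P3 (adjusted p = 0.0014) against fed livers. From P3 to P3r2 it differed by 0.79 ± 0.27 (adjusted p = 0.053), and by 0.91 ± 0.28 without P3 animal 4 (adjusted p = 0.042). The other 5 ranged from -0.07 to 0.37 in the comparisons of P2 and P3 with fed livers.

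The 6 microfibril and network-forming collagens, Col6a1, Col6a3, Col7a1, Col8a1, Col8a2 and Col10a1, were not called in any comparison with all arrays. The type VI chains had the largest differences. Col6a3 read 5.88, 5.94, 5.83 and 6.39 in fed livers, 5.33, 5.59, 5.45 and 5.38 in P2, 5.0, 5.16, 5.28 and 6.46 in P3, and 5.59, 5.63, 5.99 and 5.56 in P3r2. Its P2 values did not overlap the fed values, and 3 of the 4 P3 values lay below all P2 values. Col6a3 without P3 animal 4 was lower in P3 than in fed livers by -0.87 ± 0.15 (adjusted p = 0.00083) and higher in P3r2 than in P3 by 0.54 ± 0.15 (adjusted p = 0.021). Col6a1 was at -0.76 ± 0.29 in P2 against fed (adjusted p = 0.091), also with no overlap. The 5 multiplexin and transmembrane collagens, Col15a1, Col17a1, Col18a1, Col23a1 and Col25a1, were not called either. Col18a1, the precursor of endostatin, was at -0.67 ± 0.28 in P2 (adjusted p = 0.13), with 7.28 in P2 animal 4 and 8.13 to 8.51 in the other P2 livers.

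The basement membrane collagens Col4a1 and Col4a2, whose products form 1 trimer and whose genes lie head to head on rat chromosome 16, were lower at phase 2. RefSeq places their starts 77 bases apart in assembly GRCr8, so that the windows from 250 bases before to 50 bases after each start share 176 bases. The windows are printed because the starts of these genes, both called lower in P2, lie in overlapping sequence. Neither P2 call held once the length trend was removed (Col4a1 -0.24, adjusted p = 0.26, and Col4a2 -0.19, adjusted p = 0.28). The part of the shared sequence in their values was not tested. Capitals mark GC boxes (GGGCGG) and CCAAT boxes (CCAAT) on either strand, at chr16:84885347-84885646 on the plus strand for Col4a1 and chr16:84885471-84885770 on the minus strand for Col4a2.
Col4a1: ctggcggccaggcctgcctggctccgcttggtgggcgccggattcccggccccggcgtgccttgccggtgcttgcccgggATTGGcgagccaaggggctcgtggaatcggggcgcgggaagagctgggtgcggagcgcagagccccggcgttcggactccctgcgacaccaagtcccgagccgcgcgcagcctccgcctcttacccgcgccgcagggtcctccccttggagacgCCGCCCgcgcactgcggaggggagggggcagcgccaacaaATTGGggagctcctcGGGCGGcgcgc
Col4a2: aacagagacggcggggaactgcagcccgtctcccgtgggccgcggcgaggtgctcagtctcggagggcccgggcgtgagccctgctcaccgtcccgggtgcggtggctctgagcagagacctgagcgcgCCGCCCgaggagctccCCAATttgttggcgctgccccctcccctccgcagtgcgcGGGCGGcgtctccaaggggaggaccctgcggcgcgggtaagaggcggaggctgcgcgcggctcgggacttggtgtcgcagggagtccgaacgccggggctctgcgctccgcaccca

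Col4a2 had log2 signals of 6.75, 6.66, 6.66 and 6.90 in fed livers, 6.22, 6.29, 6.17 and 6.08 in P2, 6.61, 6.51, 6.31 and 7.02 in P3, and 6.52, 6.33, 6.61 and 6.32 in P3r2. All P2 values were below all values of the other 3 groups. Col4a2 fell by 0.55 ± 0.13 in P2 against fed (adjusted p = 0.015), a call lost without fed animal 4 (adjusted p = 0.052). Col4a1 fell by 0.58 ± 0.18 (adjusted p = 0.045), and this call was lost without any single array except fed animal 2 (adjusted p 0.054 to 0.13). From P2 to P3, Col4a2 rose by 0.42 ± 0.13 (adjusted p = 0.031), but was not called without P3 animal 4 (0.29 ± 0.11, adjusted p = 0.1), P3 animal 1 or P2 animal 1, 3 or 4 (adjusted p 0.051 to 0.081). Quantile normalization brought this rise to 0.15 (adjusted p = 0.41). Col4a1 had 0.40 ± 0.18 in this step (adjusted p = 0.13). Col4a5, a dim chain, was higher in P3r2 than in P3 by 0.34 ± 0.08 (adjusted p = 0.0095), and by 0.17 once the length trend was removed (adjusted p = 0.44). Its 4 re-fed values, 4.60, 4.64, 4.54 and 4.46, lay above all others. Col4a4 and Col4a6, both dim, were called in no comparison.

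Promoter windows of this kind were matched for 58 of the 79 genes. Of these, 30 held GGGCGG (51.7%, against 34.9% of all 27457 windows), 19 held CCAAT (32.8% against 37.7%) and 14 held the TATA box TATAAA (24.1% against 14.3%). The AP-1 motif TGANTCA was in 8 (13.8% against 7.3%), the FOXO motif GTAAACA in 1 (1.7% against 3.8%) and ACANNNTGT, a shortened motif of the glucocorticoid receptor, in 4 (6.9% against 6.6%). Both strands were searched, N stands for any base, and matches of different motifs did not overlap in the windows printed. These are matches of letters, and no binding was measured.

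Collagen chains need a set of helpers to fold and cross-link, and helpers were called in both directions at phase 3. Of 22 measured helpers, 2 rose and 6 fell in P3 relative to fed livers, where all rows gave 11.3% and 8.06%. The counts were 1 and 7 when P3 animal 4 was left out, against 8.84% and 7.07% of all rows, with Ppib, a prolyl isomerase, no longer called lower (adjusted p = 0.057). P4hb, the protein disulfide isomerase that is also the beta subunit of prolyl hydroxylase, fell by 1.73 ± 0.11 (adjusted p = 2.6e-08), Serpinh1, the collagen chaperone, by 1.51 ± 0.33 (adjusted p = 0.0032) and Fkbp14, a collagen prolyl isomerase, by 1.42 ± 0.25 (adjusted p = 0.00054). The alpha subunits P4ha1 (0.70 ± 0.21) and P4ha2 (0.76 ± 0.16) rose, although P4ha1 was not called without P3 animal 4 (adjusted p = 0.11). After re-feeding, P4hb was higher than in P3 by 2.12 ± 0.11 (adjusted p = 2.2e-09) and Serpinh1 by 1.52 ± 0.33 (adjusted p = 0.0034), with 5 helpers higher and 1 lower, P4ha2, where all rows gave 10.5% and 7.93%. Leaving out P3 animal 4 gave 6 and 1, against 9.44% and 6.06% of all rows. P4hb also serves secretion of other proteins by hepatocytes.

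Lox, the lysyl oxidase that starts the cross-linking of collagen, was lower than in fed livers in P2 (-1.55 ± 0.42, adjusted p = 0.025), P3 (-1.35 ± 0.42, adjusted p = 0.031) and P3r2 (-1.71 ± 0.42, adjusted p = 0.04). In P2, 2 helpers fell, Lox and Fkbp14, and 0 rose. All rows gave 6.13% higher and 6.58% lower in P2, and 11.3% and 8.06% in P3 against fed. Of 22 other matrix glycoproteins and proteoglycans, 0 rose and 8 fell in P2, and 1 rose and 6 fell in P3 against fed. Fbln5, a protein of elastic fibres, fell by 1.07 ± 0.19 in P2 (adjusted p = 0.0026) and by 1.70 ± 0.19 in P3 (adjusted p = 8.1e-06), and was higher in P3r2 than in P3 by 1.23 ± 0.19 (adjusted p = 0.00019). Biglycan (Bgn), the close relative of decorin, fell by 1.08 ± 0.28 in P2 (adjusted p = 0.023), where Dcn rose. Mgp, matrix Gla protein, rose in P3 by 1.69 ± 0.50 (adjusted p = 0.025), a call lost without P3 animal 4 (1.27 ± 0.47, adjusted p = 0.091). Without that animal the list had 0 genes higher and 8 lower in P3, against 8.84% and 7.07% of all rows.

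Laminin chains, which assemble as trimers into the cross-shaped proteins of basement membranes, were called in both directions between the phases of fasting. Of 9 chains, Lama1, Lama2, Lama3, Lama4, Lama5, Lamb1, Lamb2, Lamb3 and Lamc1, 3 rose and 1 fell from P2 to P3, where all rows gave 13.5% and 8.53%. Lamc1, the gamma chain of most laminins, had log2 signals of 7.04, 6.74, 6.87 and 7.33 in fed livers, 6.24, 6.11, 6.35 and 5.53 in P2, 7.97, 7.22, 6.90 and 7.67 in P3, and 6.99, 6.82, 6.97 and 6.43 in P3r2. All P2 livers were lowest, and the other 3 groups overlapped. Lamc1 fell by 0.93 ± 0.23 in P2 against fed (adjusted p = 0.017), a call lost without fed animal 4 or P2 animal 4 (adjusted p = 0.06 and 0.062). It rose by 1.38 ± 0.23 from P2 to P3 (adjusted p = 0.00043), as did Lamb2 by 0.67 ± 0.15 (adjusted p = 0.0045).

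Lamb2, a beta chain of vessels and nerve, read 5.61, 5.63, 5.59 and 5.32 in P2 and 6.27, 6.17, 5.91 and 6.47 in P3, with fed livers, at 5.89, 5.72, 5.79 and 6.35, above all P2 values and overlapping P3. In P3r2 it read 5.66, 5.48, 5.77 and 5.36, all below P3, a change of -0.64 ± 0.15 (adjusted p = 0.007). Lama2, the alpha chain of muscle and nerve laminin, was higher in P3 than in P2 by 0.58 ± 0.18 (adjusted p = 0.032), a call lost without P2 animal 2, 3 or 4 or P3 animal 1 or 4 (adjusted p 0.052 to 0.11). Lama3, the alpha chain of the epithelial laminin, went the other way. It read 5.07, 4.49, 4.74 and 5.53 in fed livers, 5.71, 5.74, 5.30 and 5.06 in P2, 4.53, 4.50, 3.74 and 3.89 in P3, and 4.70, 4.52, 4.81 and 4.84 in P3r2. All P3 values lay below all P2 values, a difference of -1.29 ± 0.23 (adjusted p = 0.00078), and -1.19 ± 0.25 without P3 animal 4.

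Against fed livers Lama3 fell by 0.79 ± 0.23 in P3 (adjusted p = 0.024), a call lost without fed animal 1 or 4 or P3 animal 3 or 4 (adjusted p 0.062 to 0.084). Lamb3, the beta chain of the same epithelial laminin, fell by 0.23 ± 0.08 (adjusted p = 0.048), and this call was lost without any 1 of the 8 arrays compared (adjusted p 0.053 to 0.11). In P2 against fed, 7 of the 9 chains were below 0, with a median of -0.38, and Lamc1 alone was called. Most chains are long genes, and the longest length group of all brighter rows had a median of -0.35 there. Once the length trend was removed, Lama4 (-0.02), Lama2 (0.03) and Lamb1 (-0.13) were near 0 and not called. Lamc1 (-0.58) and Lamb2 (-0.42) were then called lower and Lama3 (0.89) higher. The other 4 chains, Lama1, Lama4, Lama5 and Lamb1, were called in no comparison.

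PDGF receptor beta was lower than in fed livers in all 3 other groups. Pdgfrb (transcript cluster 7171030) read 7.56, 7.85, 7.86 and 8.08 in fed livers, 6.28, 6.69, 6.33 and 5.87 in P2, 6.58, 6.43, 6.15 and 7.33 in P3, and 6.55, 6.53, 6.77 and 6.16 in P3r2. Each of the 12 values of fasted and re-fed livers lay below the lowest fed value, and the highest of them was P3 animal 4. It fell by 1.54 ± 0.23 in P2 (adjusted p = 0.00088), by 1.22 ± 0.23 in P3 (adjusted p = 0.001) and by 1.33 ± 0.23 in P3r2 (adjusted p = 0.0053), a signal 2.92-fold, 2.32-fold and 2.52-fold lower. These 3 values share the 4 fed arrays. Re-fed livers and P3 livers differed by -0.12 ± 0.23 (adjusted p = 0.82). The change in P3 was -1.45 ± 0.19 without P3 animal 4 (adjusted p = 9.5e-05).

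Other markers of stellate cells and fibroblasts were called in both directions. In P2 against fed, 2 of 14 were lower, Lrat (-1.06 ± 0.22), the enzyme that stores retinol as esters, and Reln (-0.92 ± 0.22), and 0 were higher. All rows gave 6.58% lower and 6.13% higher there, and 8.06% lower and 11.3% higher in P3 against fed. In P3, Lrat was lower (-1.28 ± 0.22) and Gucy1a1 (1.07 ± 0.20) and Cygb (0.64 ± 0.21) were higher, Cygb not without P3 animal 4 (adjusted p = 0.16). From P3 to P3r2, 1 of the 14 was higher, Lrat (1.18 ± 0.22), and 4 were lower, Gucy1a1 (-1.45 ± 0.20), Ecm1 (-1.0 ± 0.19), Hgf (-0.98 ± 0.32) and Cygb (-0.65 ± 0.21), where all rows gave 10.5% and 7.93%. When P3 animal 4 was left out, Hgf (adjusted p = 0.11) and Cygb (adjusted p = 0.15) were not called, and 2 markers were higher and 2 lower, against 9.44% and 6.06% of all rows. In P3r2 against fed, 0 of the 14 were called, where all rows gave 2.21% higher and 0.514% lower. Their part in the level of Pdgfrb was not tested.

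**Figure D3:**
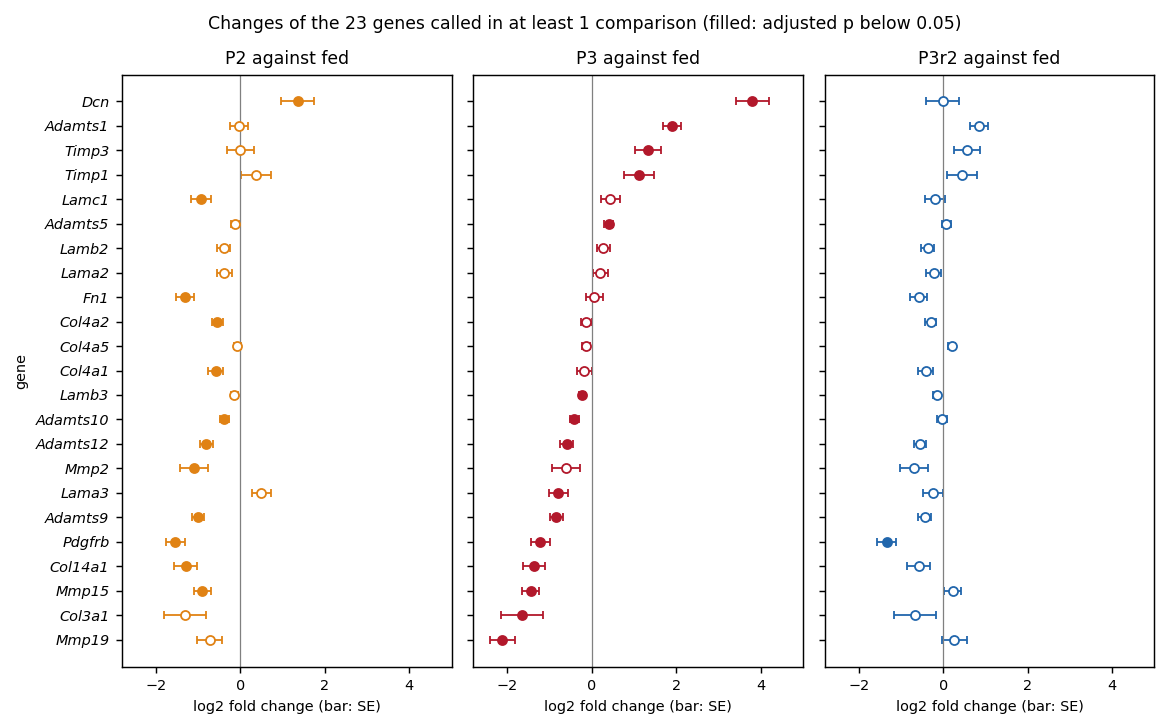
Log2 fold change with its standard error for the 23 genes called in at least 1 comparison, in P2, P3 and P3r2 against the same 4 fed livers. Filled points were called, Dcn lies at 3.80 and Mmp19 at -2.12 in P3, and in P3r2 Pdgfrb (-1.33) is the filled point.

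Among the matrix metalloproteinases, Mmp19 and Mmp15 were lower at phase 3 and overlapped the fed range, or lay above most of it, after re-feeding. Mmp19 (transcript cluster 7311897), a secreted enzyme that cuts basement membrane proteins, read 8.83, 8.14, 8.84 and 8.80 in fed livers and 7.94, 7.84, 8.35 and 7.58 in P2. In P3 it read 7.06, 7.14, 5.41 and 6.52, and in P3r2 9.04, 8.83, 8.95 and 8.83. All P3 values were below all P2 values, and P2 overlapped the fed range at fed animal 2. Mmp19 fell by 2.12 ± 0.30 in P3 against fed (adjusted p = 8.8e-05), a signal 4.34-fold lower, and P3 was lower than P2 by -1.40 ± 0.30 (adjusted p = 0.0029). It rose by 2.38 ± 0.30 with re-feeding (adjusted p = 3.3e-05). In P2 the change of -0.72 ± 0.30 was not called (adjusted p = 0.12).

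Mmp15, a membrane-type metalloproteinase, read 7.50, 7.30, 7.76 and 7.64 in fed livers, 7.02, 6.70, 6.82 and 6.07 in P2, 6.11, 6.30, 5.83 and 6.20 in P3, and 7.80, 7.58, 8.27 and 7.47 in P3r2. Both fasted groups lay below all fed and re-fed values. It fell by 0.90 ± 0.20 in P2 (adjusted p = 0.011) and by 1.44 ± 0.20 in P3 (adjusted p = 8.4e-05) against fed, and rose by 1.67 ± 0.20 from P3 to P3r2 (adjusted p = 2.3e-05). Both were also called without P3 animal 4, with -2.11 ± 0.34 for Mmp19 and -1.47 ± 0.23 for Mmp15 in P3 against fed without it.

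Mmp2, the gelatinase made by stromal cells, read 7.23, 6.73, 7.22 and 7.54 in fed livers, 6.11, 6.49, 6.41 and 5.33 in P2, 6.40, 5.99, 6.25 and 7.65 in P3, and 6.50, 6.39, 6.95 and 6.13 in P3r2. The P2 values lay below all fed values, and P3 animal 4 was highest of the 16. Mmp2 fell by 1.1 ± 0.33 in P2 (adjusted p = 0.041), a call lost without fed animal 1, 3 or 4 or P2 animal 1 or 4 (adjusted p 0.065 to 0.13). In P3 it was not called (-0.61 ± 0.33, adjusted p = 0.26), but was called lower without animal 4 (-0.97 ± 0.27, adjusted p = 0.022). Mmp14, the membrane-type enzyme that activates the product of Mmp2, was at -0.87 ± 0.28 in P2 (adjusted p = 0.051) and was called in no comparison. The other 15 metalloproteinases were called in no comparison, and 11 of these had a dim signal, Mmp1b, Mmp3, Mmp7, Mmp8, Mmp9, Mmp10, Mmp11, Mmp12, Mmp13, Mmp20 and Mmp21. The 4 brighter genes among them, Mmp16, Mmp17, Mmp23 and Mmp25, ranged from -0.30 to 0.29 in the comparisons with fed livers.

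ADAMTS proteases cut proteoglycans and procollagens, and the neighbours Adamts1 and Adamts5 on rat chromosome 11 were both higher at phase 3. Adamts1 (transcript cluster 7091079), which cuts versican and aggrecan, read 6.68, 6.17, 6.04 and 7.10 in fed livers, 6.88, 6.55, 6.31 and 6.14 in P2, 8.47, 8.19, 8.30 and 8.59 in P3, and 7.26, 7.51, 7.50 and 7.07 in P3r2. All P3 values lay above all others, and the re-fed values lay between P3 and fed with 1 of them, 7.07, inside the fed range. It rose by 1.89 ± 0.21 in P3 against fed (adjusted p = 1.1e-05), a 3.71-fold higher signal, and by 1.92 ± 0.21 against P2 (adjusted p = 1.4e-05). Re-feeding changed it by -1.05 ± 0.21 (adjusted p = 0.0022), and against fed livers the remaining 0.84 ± 0.21 missed the threshold (adjusted p = 0.05). The window around its start, chr11:38427335-38427634 on the minus strand, is shown for the gene with the largest rise among the proteases, with capitals for GC boxes, the CCAAT box and the TATA box.
Adamts1: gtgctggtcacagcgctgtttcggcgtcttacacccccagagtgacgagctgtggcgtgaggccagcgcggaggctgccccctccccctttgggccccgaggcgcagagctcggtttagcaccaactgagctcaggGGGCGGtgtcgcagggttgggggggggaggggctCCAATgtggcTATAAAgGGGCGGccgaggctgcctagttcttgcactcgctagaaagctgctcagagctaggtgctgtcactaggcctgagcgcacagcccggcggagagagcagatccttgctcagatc

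Adamts5, an aggrecanase, rose by 0.40 ± 0.11 in P3 against fed (adjusted p = 0.014) and by 0.53 ± 0.11 against P2 (adjusted p = 0.002). The first of these calls was lost without P3 animal 4 (0.32 ± 0.11, adjusted p = 0.054). Once the length trend was removed neither was called (0.39, adjusted p = 0.055, and 0.28, adjusted p = 0.15). Its 4 P3 values, 5.23, 5.01, 5.31 and 5.51, lay above the fed values, 4.81, 4.95, 4.80 and 4.88. With re-feeding it fell by 0.33 ± 0.11 (adjusted p = 0.047), a call lost without P3 animal 1, 3 or 4 or P3r2 animal 1, 2 or 4 (adjusted p 0.073 to 0.16).

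Another 3 ADAMTS genes were lower in both fasted groups. Adamts9, which cuts versican, read 5.21, 5.25, 5.25 and 5.92 in fed livers, 4.39, 4.54, 4.42 and 4.28 in P2, 4.37, 4.52, 4.71 and 4.67 in P3, and 4.96, 4.94, 5.12 and 4.84 in P3r2. The fasted values were all below the re-fed values, and the re-fed values all below the fed values. Adamts9 fell by 1.00 ± 0.15 in P2 (adjusted p = 0.00087) and by 0.84 ± 0.15 in P3 (adjusted p = 0.00055) against fed. Adamts12, which cuts cartilage oligomeric matrix protein, fell by 0.81 ± 0.15 in P2 (adjusted p = 0.0038) and by 0.60 ± 0.15 in P3 (adjusted p = 0.0099), and the P3 change was -0.78 ± 0.11 without animal 4. Adamts10, which binds fibrillin, fell by 0.38 ± 0.11 in P2 (adjusted p = 0.036) and by 0.42 ± 0.11 in P3 (adjusted p = 0.012), and rose by 0.39 ± 0.11 with re-feeding (adjusted p = 0.02). Its P2 call was lost without fed animal 2 or 4 or P2 animal 1, 2 or 4 (adjusted p 0.068 to 0.11), and its re-feeding call without P3 animal 1 or P3r2 animal 1 or 3 (adjusted p 0.055 to 0.07). The re-feeding call was also lost with quantile normalization (0.32, adjusted p = 0.086) and the P3 call without the 3 arrays of narrow spread (-0.33, adjusted p = 0.075). The other 7, Adamts3, Adamts6, Adamts8, Adamts15, Adamts16, Adamts18 and Adamts19, were called in no comparison, and 6 of them were dim.

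The tissue inhibitors Timp1 and Timp3 were higher at phase 3. Timp3 (transcript cluster 7323040), the inhibitor that binds to matrix and also blocks ADAM and ADAMTS enzymes, read 6.86, 6.40, 7.07 and 7.06 in fed livers, 7.04, 7.33, 7.14 and 5.90 in P2, 7.88, 8.08, 7.88 and 8.87 in P3, and 7.56, 7.34, 7.87 and 6.86 in P3r2. All P3 values lay above all others, with animal 4 highest. Timp3 rose by 1.33 ± 0.31 in P3 against fed (adjusted p = 0.0054) and by 1.32 ± 0.31 against P2 (adjusted p = 0.0052), and the changes were 1.1 ± 0.30 and 1.09 ± 0.30 without P3 animal 4 (adjusted p = 0.022 for each). Re-fed livers differed from P3 by -0.77 ± 0.31 (adjusted p = 0.1). The window around its start, chr7:19459509-19459808 on the minus strand, is shown for the inhibitor whose rise was called with and without animal 4, with capitals for GC boxes and the CCAAT box.
Timp3: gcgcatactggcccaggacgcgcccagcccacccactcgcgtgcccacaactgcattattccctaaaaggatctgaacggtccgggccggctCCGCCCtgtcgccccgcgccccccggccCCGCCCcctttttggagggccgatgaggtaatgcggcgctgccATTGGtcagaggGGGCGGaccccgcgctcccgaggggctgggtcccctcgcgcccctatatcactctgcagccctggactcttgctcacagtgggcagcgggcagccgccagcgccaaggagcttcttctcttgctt

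Timp1 read 5.44, 5.15, 5.63 and 6.09 in fed livers, 5.90, 6.32, 5.65 and 5.95 in P2, 5.86, 5.93, 7.70 and 7.28 in P3, and 6.04, 5.99, 6.43 and 5.62 in P3r2. The 2 high values of P3 were animals 3 and 4, and the other 2 lay inside the fed range. It rose by 1.12 ± 0.35 in P3 (adjusted p = 0.036), a call lost without P3 animal 3 or 4 or fed animal 1, 2 or 3 (adjusted p 0.067 to 0.12), and at 0.64 without the 3 arrays of narrow spread (adjusted p = 0.26). Timp2 was called in no comparison, and its change in P3 was -0.01 ± 0.30 with and -0.33 ± 0.25 without animal 4.

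**Figure D4:**
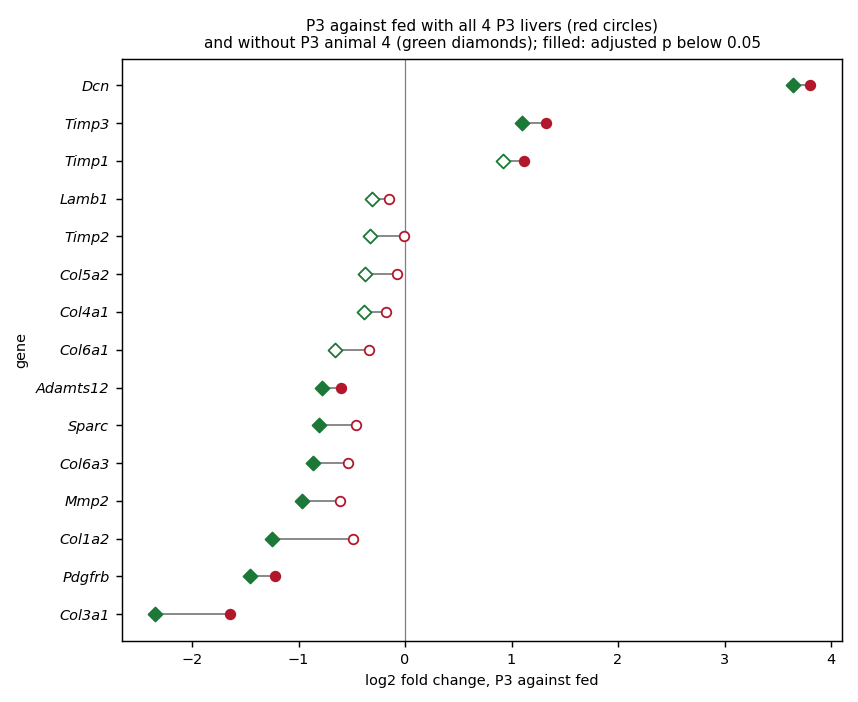
Log2 fold change of P3 against fed with all 4 P3 livers (circles) and without P3 animal 4 (diamonds), for the 15 brighter genes whose value moved by at least 0.15. Filled marks were called, and all 15 lie lower without the animal, from Dcn at 3.64 to Col3a1 at -2.35.

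Gene length was noted because matrix genes are long and because changes over the whole array followed length. The median span of the 79 genes in RefSeq was 42254 bases, against 19909.5 for all genes with a row. In P2 against fed, across 8226 brighter rows the Spearman correlation of the change with length was -0.38, and across the 53 brighter matrix genes it was -0.11. Both are descriptions across genes, which are not independent replicates, and the genes share the same arrays. Among 5 length groups of equal size, the longest had a median change of -0.35 over all its rows and held 21 matrix genes with a median of -0.42 and 7 of the 11 called lower. The matrix genes lower in P2 also included shorter genes, such as Mmp15 (21495 bases), Mmp2 (28214 bases) and Pdgfrb (38881 bases).

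With the trend of each array with length taken out, Pdgfrb (-1.35), Fn1 (-1.01), Mmp2 (-0.98), Col14a1 (-0.91), Mmp15 (-0.83), Adamts9 (-0.63) and Lamc1 (-0.58) were still called lower in P2. Col4a1 (-0.24, adjusted p = 0.26), Col4a2 (-0.19, adjusted p = 0.28), Adamts10 (-0.24, adjusted p = 0.24) and Adamts12 (-0.41, adjusted p = 0.057) were not. Another 4 genes were called lower, Col6a1, Lamb2, Mmp14 and Mmp19. On the higher side the count became 8, against 11.1% of all rows with a known length (10.3% lower), namely Dcn (1.56), Lama3 (0.89), Col25a1, Col22a1, Col23a1, Col11a1, Col19a1 and Adamts6, and the 7 besides Dcn had a change of 0.50 or less before. The trend was fitted on the brighter rows and also taken out of dim rows. For the dim genes Col25a1, Col19a1, Adamts6 and Col4a5 the values therefore rest on a trend from other rows. In P3 against fed the correlation with length was -0.08 across the brighter rows and -0.14 across the brighter matrix genes, and Dcn (3.77), Adamts1 (1.79), Timp3 (1.32), Mmp19 (-2.22) and Mmp15 (-1.50) were called with the trend taken out, while Adamts5 (0.39, adjusted p = 0.055) and Lamb3 (-0.26, adjusted p = 0.24) were not. In the other comparisons, calls were lost for Adamts5 (0.28, adjusted p = 0.15), Lama2 (0.36, adjusted p = 0.062) and Col4a2 (0.15, adjusted p = 0.37) in P3 against P2, and for Adamts10 (0.27, adjusted p = 0.21) and Col4a5 (0.17, adjusted p = 0.44) in P3r2 against P3.

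**Figure D5:**
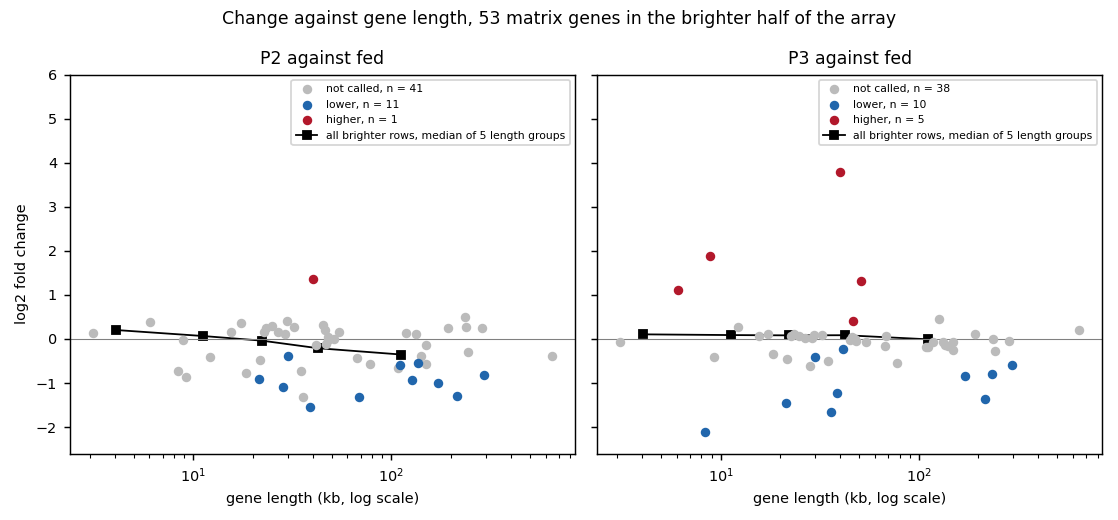
Log2 fold change against gene length on a log scale for the 53 brighter matrix genes, in P2 and in P3 against fed. Black marks join the medians of 5 length groups of all brighter rows, and in P2 the line runs from 0.20 in the shortest group to -0.35 in the longest, and in P3 it stays between -0.01 and 0.11.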

How the data were processed

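The 4 groups and the animal numbers came from the sample labels. The authors deposited 1 table of log2 signals per transcript cluster and array; its log2 scale was read from the values, which run from 0.836 to 13.6. Per the submitters' processing notes, GCOS 1.4 and Expression Console 1.1 were used, and how probes were summarised, background correction and genome build are not stated there. Of 19418 rows, 533 with identifiers below the range that the annotation covers were left out and 18885 were tested. GEO's platform annotation gave 1 symbol for 13327 rows, several for 620 and none for 4938, and the brightest row stood for a gene.

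Values were used as deposited, with no filter, in limma 3.58.1 (R 4.3.3): lmFit and eBayes, 1 mean per group over all 16 arrays, 5 two-sided comparisons, Benjamini-Hochberg adjustment over all rows and a threshold of 0.05. Array medians lay between 4.34 and 4.46. Gene length is the RefSeq span in GRCr8, known for 99.3% of genes. Its trend was fitted per array by loess (span 0.5) on the brighter rows and taken out of all rows with a known length. Promoter sequences are from RefSeq. The code was tested on simulated data. Alternatives were quantile normalization, median centring, omission of dim rows, averaging a gene's rows, removal of the length trend, each array's spread as a covariate, omission of the 3 narrow-spread arrays, a block for the animal number, and omission of single arrays.

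Genes described in full were, per role, the 4 called with the largest change, the single genes of the selection, the 6 largest rises and falls per comparison, and of other lists up to 4 called genes; other genes, chosen after their values were seen, are Col1a2, Col6a1, Col6a3, Col5a2, Col11a1, Col11a2, Col18a1, Mmp14 and Timp2. The members and lists (matrix pathways and cell type markers) were chosen with earlier results of these data known. Dates and slides of the arrays were not used here.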

Additional observations from a re-analysis of the deposited data

Results flagged for a closer look

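In groups of 4 livers, 9 of the 220 groups formed by 55 named genes had 1 liver far from the other 3 by Dixon's criterion for the gap relative to the range, and chance gives about 1 in 20. The count of 9 was below that rate. The genes share the same arrays, so this total cannot decide whether any single liver stands apart. Col1a2 in P3 animal 4 was 9.96, where the other P3 livers had 6.81 to 7.0. P3r2 animal 3 was highest of its group for 3 collagens that form fibres or microfibrils: Col1a2 at 8.09 against 7.38 to 7.49, Col3a1 at 8.37 against 7.94 to 7.98, and Col6a3 at 5.99 against 5.56 to 5.63. This animal was highest of the re-fed livers in 29 of the 53 brighter matrix genes (54.7%), and in 34.6% of all brighter rows. In P3, animal 3 was highest in 22 of the 53 (41.5%, against 25.8% of all brighter rows), and animal 4 in 21 (39.6% against 28.1%). Animal 3 was lowest in 23 of the 53 and in 43.1% of all brighter rows, and animal 4 in 3 and in 11.3%. Fed animal 4 was highest of its group in 26 (49.1% against 42.7%), fed animal 2 in 18 (34% against 11.2%) and P2 animal 2 in 24 (45.3% against 21.5%). Fed animal 2 was also lowest in 21 of the 53 and in 64.1% of all brighter rows. Adamts9 in fed animal 4 was 5.92 against 5.21 to 5.25, and Mmp19 in fed animal 2 was 8.14 against 8.80 to 8.84. Lamb2 in P2 animal 4 was 5.32 against 5.59 to 5.63, Mmp25 in P2 animal 2 was 4.85 against 4.66 to 4.69, and Col11a1 in P3r2 animal 4 was 4.83 against 4.56 to 4.6.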

How the results depend on the processing

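Of 48 calls on matrix genes over the 5 comparisons, 28 held under every alternative run, and 30 under every alternative that kept all arrays of a group or left out the 3 of narrow spread. Most counts of called genes moved by less than 1.5 times, with these exceptions. In P2 against fed, the 1 gene higher became 2 with dim rows left out (11.6% of rows tested), with array spread as a covariate (7.24%) and without the 3 arrays of narrow spread (4.47%). It became 8 with the length trend taken out (11.1% of all rows). In P3 against P2, the 2 genes lower became 4 with the length trend taken out (14.8% of all rows) and 5 without the narrow arrays (9.12%). In P3r2 against P3, the 5 genes lower became 3 with median centring (7.31% of all rows), 8 with the length trend taken out (15.7%) and 9 with the covariate (11.8%), where the main share was 7.93%. In P3r2 against fed, the 0 genes higher became 1 with dim rows left out (6.27% of rows tested) and with averaged rows per gene (2.22%). The 1 gene lower became 6 with quantile normalization (0.969% of rows tested), 5 with the length trend taken out (1.56%), 5 with the covariate (1.39%), 2 with dim rows left out (1.1%) and 2 without the narrow arrays (0.948%). The cause was not tested. Apart from the losses with length given above, calls were lost with array spread as a covariate (Col4a1 and Mmp2 in P2 against fed, Col4a2 and Lama2 in P3 against P2), with median centring (Fn1 and Adamts5 in P3r2 against P3), and without the narrow arrays (Dcn, Col4a1, Mmp2 and Adamts10 in P2 against fed, Col3a1, Timp1, Lamb3 and Adamts10 in P3 against fed, Adamts5 in P3r2 against P3). Others were lost with quantile normalization (Adamts10 in P2 against fed and P3r2 against P3, Col4a2 in P3 against P2) and with dim rows left out (Lamb3).

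With each array left out in turn, the counts of genes higher and lower ranged from 0 to 2 and 6 to 11 in P2 against fed, 3 to 5 and 7 to 12 in P3 against fed, 7 to 11 and 2 to 6 in P3 against P2, 3 to 8 and 3 to 6 in P3r2 against P3, and 0 to 1 and 1 to 1 in P3r2 against fed. The direction of Col1a2 in P3r2 against P3 reversed without P3 animal 4, to 0.70 from -0.06, and the values ranged from -0.35 to 0.70 over the arrays left out. With the animal number as a replicate block, 1 and 8, 5 and 9, 8 and 2, 4 and 4, and 0 and 1 genes were higher and lower in these comparisons. All rows then gave 5.06% and 5.34%, 10.7% and 7.43%, 12.9% and 7.69%, 9.93% and 7.39%, and 1.81% and 0.44%. Deviations of animals with the same number from their group means had correlations from -0.40 to 0.26 over 20 pairs. Those of P3 with fed livers were 0.06, 0.10, 0.11 and 0.26. The labels do not say whether the number pairs animals, and correlations around means of 4 arrays cannot decide it. With 4 arrays per group and 26 of the 79 genes dim, small changes of dim genes could not be resolved.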

Other observations

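Genes that carry TGF-beta signals, which drive stellate cells to make matrix, were called in both directions at phase 3. Of 18 measured, 3 rose and 1 fell in P3 relative to fed livers, where all rows gave 11.3% and 8.06%. Tgfbr3, the co-receptor betaglycan, had log2 signals of 8.18, 8.21, 7.93 and 8.24 in P3 and 6.06 to 6.69 in fed livers, a rise of 1.68 ± 0.17 (limma adjusted p = 2.9e-06), and re-feeding changed it by -1.55 ± 0.17. Smad4, the shared signal carrier, rose by 0.84 ± 0.16 (adjusted p = 0.0013) and Ccn2, connective tissue growth factor, by 0.65 ± 0.15 (adjusted p = 0.0044). Ltbp4, which stores latent TGF-beta in the matrix, fell by 0.97 ± 0.13. In P2, Ccn2 (0.46 ± 0.15) was higher and Ltbp4 (-0.80 ± 0.13) lower. From P2 to P3, 4 were higher and 0 lower, where all rows gave 13.5% and 8.53%. Those higher were Tgfbr3, Smad4, Tgfbr1 and Ltbp1 (0.75 ± 0.20), the last not without P3 animal 4 (adjusted p = 0.051). In P3r2 against fed 0 of the 18 were called, where all rows gave 2.21% higher and 0.514% lower. Of the 2 PDGF ligands measured, Pdgfc was higher in P2 than in fed livers by 0.89 ± 0.19 (adjusted p = 0.0083), where Pdgfrb was lower, and lower in P3 than in P2 by -0.89 ± 0.19.

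Receptors of matrix proteins changed in both directions. Among 15 integrins and other receptors, the heparan sulfate proteoglycan Sdc4 rose by 1.19 ± 0.15 in P3 and its relatives Sdc2 and Sdc1 fell by 0.99 ± 0.15 and 1.26 ± 0.39 (adjusted p = 0.031, and 0.10 without P3 animal 4). All 3 turned with re-feeding, Sdc4 by -1.52 ± 0.15, Sdc2 by 0.84 ± 0.15 and Sdc1 by 1.49 ± 0.39. In P2, Itga1 (-0.87 ± 0.27) and Itgb1 (-0.66 ± 0.20), the chains of a collagen receptor, fell, and Itgb1 was higher in P3 than in P2 by 0.70 ± 0.20 (adjusted p = 0.067 without P3 animal 4). Of 11 other proteases and inhibitors, 0 rose and 5 fell in P3 against fed, where all rows gave 11.3% and 8.06%. Those lower were the plasma inhibitors A2m (-2.14 ± 0.42, adjusted p = 0.0014) and Serpinf2 (-1.81 ± 0.42, adjusted p = 0.005), Adam17 (-0.91 ± 0.23), Adam15 (-0.59 ± 0.15) and plasminogen, Plg (-0.84 ± 0.23, adjusted p = 0.051 without P3 animal 4). From P3 to P3r2, A2m, Serpinf2, Plg and Adam17 rose, Plg not without P3 animal 4 (adjusted p = 0.072).

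Of markers of other cell types, those called in P3 against fed were 1 higher (0 without P3 animal 4) and 1 lower of 10 endothelial markers, 2 higher of 13 macrophage markers (0 without P3 animal 4), 1 lower of 6 bile duct markers, 2 higher and 3 lower of 9 hepatocyte markers, and none of the 7 lymphocyte, 7 neutrophil, 3 mesothelial and 1 red cell markers. All rows gave 11.3% higher and 8.06% lower, and 8.84% and 7.07% without P3 animal 4. In P2 against fed, 1 endothelial and 1 neutrophil marker were lower, and 1 hepatocyte and 1 mesothelial marker were higher, where all rows gave 6.58% lower and 6.13% higher. The part of these cell types in the changes of matrix genes was not tested.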
